A study of Mus musculus with 5 samples.

Results

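A list of 8 genes of the contractile, basal (myoepithelial) side of the mammary epithelium was followed in sorted luminal cells: *Acta2*, *Tagln*, *Myh11*, *Mylk*, *Cnn1*, *Actg2*, *Oxtr* and *Trp63*. The rule names the genes and uses no measured value, and each was found once in the deposited expression table, giving 8 of 24319 genes. The table holds 5 bulk RNA-seq libraries, Lum1 to Lum5, of mouse mammary luminal cells. According to the methods, these cells were sorted by flow cytometry as live CD24Hi CD29Lo cells. Basal mammary cells are known to carry more CD29. By genotype label, Lum1, Lum2 and Lum3 are wild type, and Lum4 and Lum5 are *Brca1* knockout.

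All 5 libraries are labelled with a mixed strain, and no treatment is named. The mouse model of the study carries *MMTV-Cre* and *Brca1* fl/fl on a background of C57BL/6 and 129/Sv, so deletion depends on a Cre driven by the mouse mammary tumor virus promoter in mammary epithelium. The methods name adult female mice, a few months old and either virgin or in mid-pregnancy, for the preparation of gland cells. Which stage each bulk library comes from, and whether its wild type mice carried the Cre or a floxed allele, is not given in the sources used here. The paper describes the luminal cells of the bulk comparison as BRCA1-deficient, which differs from the labels of Lum1 to Lum3, and the labels' extraction text speaks of frozen tumors. The libraries are therefore called by their labels throughout. *Brca1*, the targeted gene, stood at 1.30, 1.32 and 0.234 FPKM in the wild type libraries and at 1.20 and 1.34 FPKM in the knockout libraries, so its level does not separate the labels.

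Myoepithelial cells form the outer layer of mammary ducts and alveoli. They contract around the alveoli when oxytocin from the pituitary binds its receptor, which raises calcium, activates myosin light chain kinase and sets smooth muscle myosin sliding along actin filaments, and milk is pushed into the ducts. Their identity as basal epithelium depends on the transcription factor p63, whereas luminal cells carry keratins 8, 18 and 19 and make the milk proteins.

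The luminal label fitted the leading keratins. *Krt8*, a keratin of simple epithelium, stood between 2240 and 3653 FPKM in the 5 libraries, while *Krt5* and *Trp63*, which mark basal cells, did not exceed 2.34 and 0.311 FPKM. *Krt14*, the third defining basal marker, was higher, at 48.2, 104, 3.65, 27.7 and 45.5 FPKM in Lum1 to Lum5. No basal library was used here, so no level can be set against that of sorted myoepithelial cells. FPKM (fragments mapped to a gene, scaled to transcript length and to the mapped fragments of the library) is a level per transcript length, so levels of different genes may be set side by side.

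The 8 genes were transcribed at low levels. On the log2(FPKM + 1) scale their median level was 1.24, 1.50 and 0.39 in Lum1, Lum2 and Lum3 and 0.57 and 0.36 in Lum4 and Lum5, a mean of 0.81 ± 0.52 (SD, n = 5). The median of *Krt8*, *Krt18* and *Krt19* lay 10.01 ± 0.78 (SD, n = 5) above it on the same scale, with a range over libraries from 9.04 in Lum2 to 11.10 in Lum3. By mean FPKM, *Oxtr*, *Tagln* and *Acta2* (6.81, 6.40 and 6.26) stood highest, at percentiles 72.2, 71.4 and 71.0 of all genes, and their spreads over libraries overlapped. *Myh11* (0.958), *Cnn1* (0.736), *Actg2* (0.490) and *Mylk* (0.427) followed with overlapping spreads, and *Trp63* (0.198) stood last, with a spread that overlapped those of these 4 genes. *Acta2* and *Tagln* reached 1 FPKM in all 5 libraries, whereas *Mylk* and *Trp63* reached it in none. In a bulk library, fewer cells of a type and less RNA per cell cannot be told apart.

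**Figure D1:**
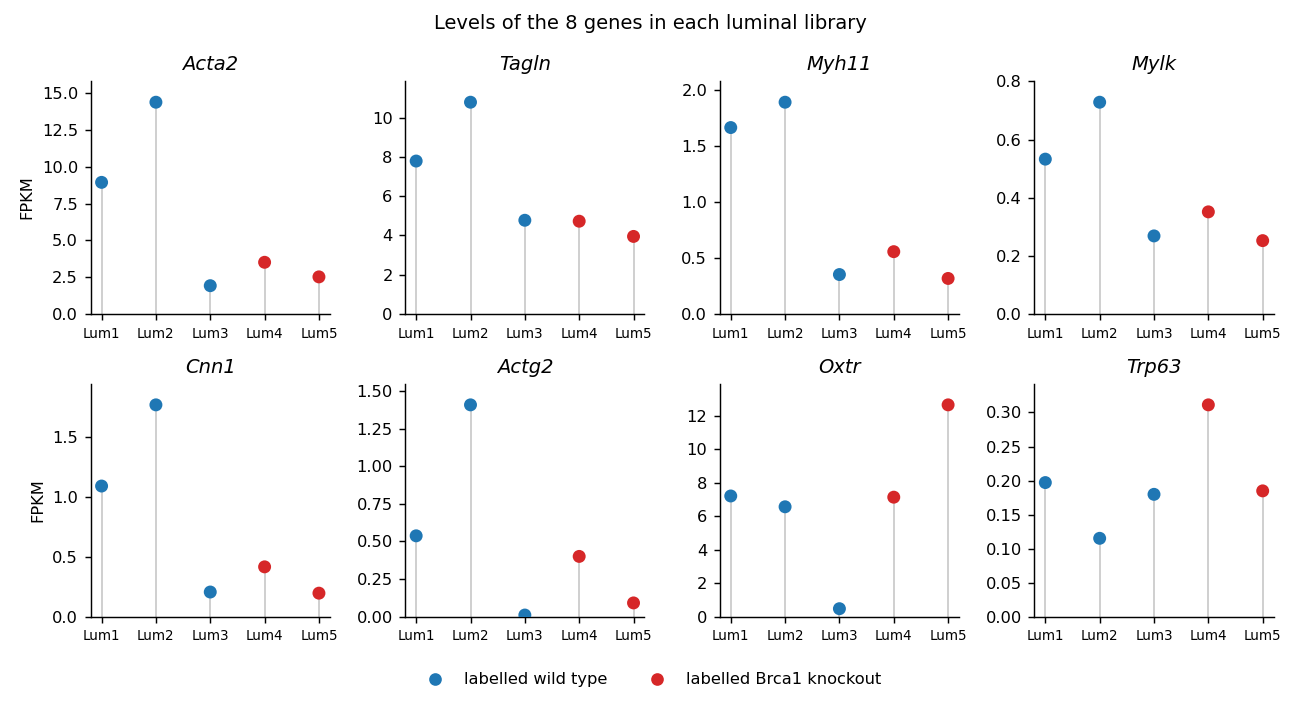
Level of each of the 8 genes in FPKM (vertical axis) in the 5 luminal libraries, coloured by genotype label. Lum2 and then Lum1 are the highest points for the 6 contractile genes, while *Oxtr* is highest in Lum5 and lowest in Lum3 and *Trp63* stays at or below 0.311 FPKM.

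*Acta2* encodes smooth muscle alpha actin, the actin of the contractile filament (ENSMUSG00000035783, minus strand of chromosome 19, 34241090 to 34255590 in mm10). It was measured at 8.95, 14.4 and 1.93 FPKM in Lum1, Lum2 and Lum3 and at 3.52 and 2.53 FPKM in Lum4 and Lum5. Lum1 and Lum2 were high, and the knockout libraries fell between them and Lum3, so the labels overlapped. Against *Krt8* in the same library, *Acta2* amounted to 0.360%, 0.642% and 0.0528% in the wild type libraries and 0.145% and 0.108% in the knockout libraries. It was also a minor actin: against the cytoplasmic *Actg1*, it ranged from 0.0573% in Lum3 to 0.541% in Lum2.

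*Tagln* encodes transgelin (SM22), an actin-binding protein of smooth muscle (ENSMUSG00000032085, minus strand of chromosome 9, 45929619 to 45936058). It was measured at 7.79, 10.8 and 4.77 FPKM in Lum1, Lum2 and Lum3 and at 4.72 and 3.95 FPKM in Lum4 and Lum5. It was the single one of the 8 genes in which every wild type library lay above every knockout library, by the narrow margin between Lum3 and Lum4, and 7.13% of the 14988 genes that averaged 0.1 FPKM or more showed that order. *Tagln* varied less between libraries than *Acta2*, so *Acta2* stood above *Tagln* in Lum1 and Lum2 (ratios of 1.15 and 1.34) and below it in Lum3, Lum4 and Lum5 (0.404, 0.744 and 0.639). The exons of *Tagln* share 108 bases with *Pcsk7* on the other strand, which was read at 11.7 to 21.0 FPKM, and 1241 bases with the antisense gene *Gm48529*. The library kit keeps no strand, so reads of these genes cannot be told apart there.

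*Myh11* encodes the smooth muscle myosin heavy chain (ENSMUSG00000018830, minus strand of chromosome 16, 14194535 to 14291372). Its level was 1.67, 1.89 and 0.353 FPKM in Lum1, Lum2 and Lum3 and 0.558 and 0.318 FPKM in Lum4 and Lum5. Lum1 and Lum2 stood apart from the other three libraries, which overlapped between labels. Against *Myh9*, the nonmuscle heavy chain, it amounted to 1.62%, 1.15% and 0.195% in the wild type libraries and 0.513% and 0.247% in the knockout libraries.

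*Mylk*, the myosin light chain kinase gene (ENSMUSG00000022836, plus strand of chromosome 16, 34745210 to 35002420), was measured at 0.533, 0.728 and 0.269 FPKM in Lum1, Lum2 and Lum3 and at 0.351 and 0.252 FPKM in Lum4 and Lum5. Its order over libraries was that of *Myh11*, over a narrower range. Its exons share 548 bases with the antisense *E130310I04Rik*, which was at or below 0.0220 FPKM. *Cnn1* encodes calponin, which binds actin and inhibits the myosin ATPase (ENSMUSG00000001349, plus strand of chromosome 9, 22099216 to 22109630). It was measured at 1.09, 1.77 and 0.206 FPKM in Lum1, Lum2 and Lum3 and at 0.416 and 0.196 FPKM in Lum4 and Lum5. The knockout libraries lay on either side of Lum3. Against *Cnn3*, a calponin of nonmuscle cells, *Cnn1* ranged from 0.160% in Lum3 to 2.03% in Lum2.

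*Actg2* encodes the smooth muscle gamma actin (ENSMUSG00000059430, minus strand of chromosome 6, 83512905 to 83536265). It was measured at 0.537, 1.41 and 0.0110 FPKM in Lum1, Lum2 and Lum3 and at 0.401 and 0.0915 FPKM in Lum4 and Lum5. From an approximate depth, these values rest on about 4.49, 24.2, 0.443, 3.36 and 2.59 fragments, so the order of the libraries below Lum2 is not resolved and no fold against Lum3 is given.

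The 6 contractile genes therefore shared their highest libraries. In 6 of 6, Lum2 was highest and Lum1 second, an order held by 4.48% of the 14988 genes that averaged 0.1 FPKM or more. The order was picked out from the values of these same genes, so the count beside that share is a description and no test. For *Actg2* the second place is the unresolved one, with about 4.49 fragments in Lum1 against 3.36 in Lum4. The summed level of the 6 genes was 20.6, 31.0 and 7.54 FPKM in Lum1, Lum2 and Lum3 and 9.97 and 7.33 FPKM in Lum4 and Lum5. Between Lum2 and Lum3, both labelled wild type, the ratio was 7.47 for *Acta2*, 2.26 for *Tagln*, 5.36 for *Myh11*, 2.71 for *Mylk* and 8.59 for *Cnn1*. On the log2(FPKM + 1) scale, which compresses low values, the closest profiles were those of *Tagln*, *Myh11* and *Cnn1*. Their centred values differed from each other, without scaling for their spread, by a root mean square of 0.085 to 0.129 over the 5 libraries. As ratios of Lum2 to Lum3, given above, these genes were unlike. Lum3 had the greatest estimated depth (30300000 fragments, against 6270000 to 21300000 in the others). *Acta2*, *Tagln* and *Myh11* still rested on about 119, 231 and 70.1 fragments there. Lum3 also stood apart in hormone and milk genes of luminal cells. *Pgr*, the progesterone receptor, was at 27.1 FPKM in Lum3 and at most 0.714 FPKM in the other libraries, *Prlr*, the prolactin receptor, at 148 against at most 10.3 FPKM, and *Foxa1* at 33.6 against at most 2.01 FPKM. *Csn2*, the beta-casein gene, was at 10569 FPKM in Lum3 and at least 25327 FPKM in the others. The part of this difference between libraries in the levels of the 8 genes was not tested.

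**Figure D2:**
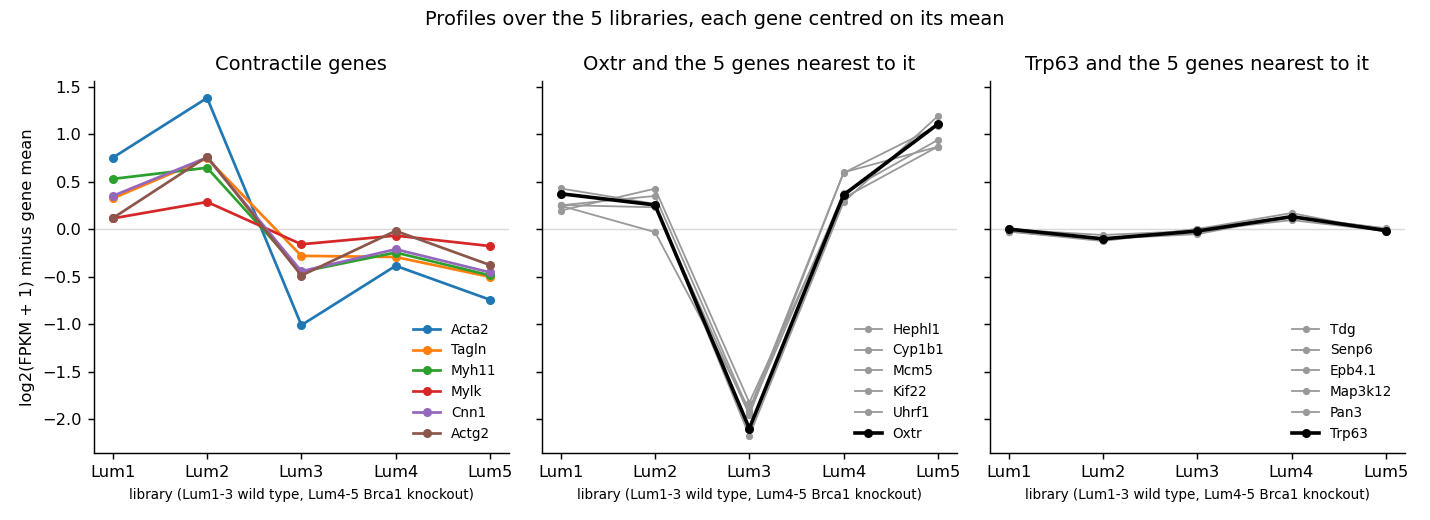
Profiles over the 5 libraries, as log2(FPKM + 1) minus the mean of the gene (vertical axis), of the contractile genes, and of *Oxtr* and *Trp63* (black) with the 5 genes nearest to each (grey). The contractile genes peak in Lum2 and Lum1, and *Oxtr* drops in Lum3 and peaks in Lum5. *Trp63*, at or below 0.311 FPKM, is nearly flat on this scale, which adds 1 to each value.

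*Oxtr* encodes the oxytocin receptor, the Gq-coupled receptor through which oxytocin starts contraction (ENSMUSG00000049112, minus strand of chromosome 6, 112473683 to 112489943). It was measured at 7.21, 6.57 and 0.478 FPKM in Lum1, Lum2 and Lum3 and at 7.14 and 12.7 FPKM in Lum4 and Lum5. Lum3 was low and Lum5 high, with the other three libraries close together, so the labels overlapped. The ratio of Lum5 to Lum3 was 26.5 and that of Lum2 to Lum3 was 13.7. The receptor was highest in Lum5, where no contractile gene was. The ratio of *Acta2* to *Oxtr* was 1.24, 2.19 and 4.03 in the wild type libraries and 0.492 and 0.199 in the knockout libraries. In Lum5, where *Oxtr* was highest, *Tagln*, *Myh11*, *Mylk* and *Cnn1* were at their lowest, but close to Lum3, where *Oxtr* was lowest. Their ratios of Lum5 to Lum3 were 0.828, 0.901, 0.940 and 0.954. For *Cnn1* that order rests on about 9.95 against 14.9 fragments. *Acta2* was lowest in Lum3, as was *Actg2*, whose order is not resolved.

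*Trp63* encodes p63 (ENSMUSG00000022510, plus strand of chromosome 16, 25683763 to 25892102). It was measured at 0.197, 0.115 and 0.180 FPKM in Lum1, Lum2 and Lum3 and at 0.311 and 0.185 FPKM in Lum4 and Lum5. About 6.63, 7.98, 29.2, 10.5 and 21.1 fragments lie behind these values, so the counting error of each value is wide and the order of the libraries rests on few fragments. Lum2, where the contractile genes were highest, had the lowest *Trp63* level.

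**Figure D3:**
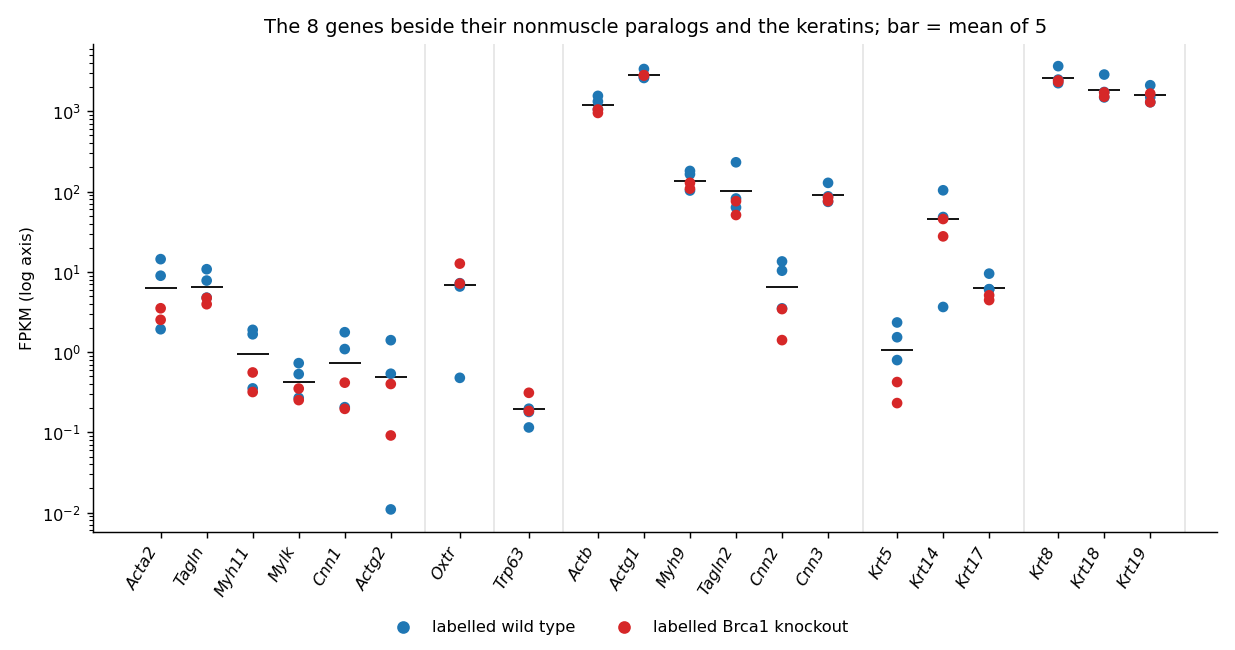
Level of each gene in FPKM (log axis), with each library as a point coloured by genotype label and a bar at the mean of the 5, beside nonmuscle paralogs, basal keratins and luminal keratins. The 8 genes lie well below *Krt8* and *Actg1* in every library.

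Sequence near the start of these genes was read from the RefSeq promoter table (GRCm38.p6, which is mm10), which matched *Acta2*, *Mylk*, *Cnn1* and *Oxtr*, 4 of the 8. *Tagln*, *Myh11*, *Actg2* and *Trp63* were not matched. For *Mylk* the table gives a start inside the GENCODE gene, so its window (plus strand, chr16:34784700-34784949) is not the one before the gene start given above. The CArG box, the binding motif of serum response factor, was searched in the 250 bases before the start because it is known from smooth muscle genes and because the contractile genes shared their order over libraries. A box was counted when at most 1 of its 6 central bases was not A or T. *Acta2* held 2 such boxes, whereas *Mylk*, *Cnn1* and *Oxtr* held none. Of 32851 promoters, 8.59% held at least 1 such box, 0.670% held 2 or more, and 1.47% held a box whose central bases were all A or T. The MCAT element, CATTCC on either strand and the motif of TEAD factors, was found in *Acta2* and *Mylk* and in 12.6% of all promoters. A match is a run of letters and no measured binding site, and a window without one says only that the letters are not there.

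The boxes of *Acta2* are shown with the bases around them, in capitals, on the minus strand at chr19:34255438-34255467 (box 1) and chr19:34255388-34255417 (box 2). Their first bases lie 84 and 34 bases before the RefSeq start. Both boxes lie inside the limits that GENCODE M21 gives the gene, and whether they fall within its first exon was not checked.
Acta2 box 1: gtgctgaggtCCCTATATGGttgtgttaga
Acta2 box 2: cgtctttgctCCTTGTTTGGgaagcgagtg

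For comparison, 3 stretches upstream of the first GENCODE exon are shown: *Cnn1* (plus strand, chr9:22099003-22099215), a contractile gene that shares its 3 highest libraries with *Acta2* and holds no box, *Oxtr* (minus strand, chr6:112489944-112490075), a gene with another order and no box, and *Myl9* (plus strand, chr2:156775214-156775419), which is not one of the 8 and is described here because its profile was among the nearest to *Acta2*. *Myl9* held 2 boxes (capitals), and in the first of them all 6 central bases are A or T. *Krt5* and *Krt14*, basal genes searched in the same way, held no box, and *Krt14* held an MCAT element.
Cnn1: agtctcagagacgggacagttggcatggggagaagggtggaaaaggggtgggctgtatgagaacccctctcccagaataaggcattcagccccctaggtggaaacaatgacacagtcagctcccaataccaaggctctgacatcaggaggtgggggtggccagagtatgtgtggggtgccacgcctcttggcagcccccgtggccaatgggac
Oxtr: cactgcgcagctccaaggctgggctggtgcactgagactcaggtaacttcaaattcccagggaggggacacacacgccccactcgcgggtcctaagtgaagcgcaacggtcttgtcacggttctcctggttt
Myl9: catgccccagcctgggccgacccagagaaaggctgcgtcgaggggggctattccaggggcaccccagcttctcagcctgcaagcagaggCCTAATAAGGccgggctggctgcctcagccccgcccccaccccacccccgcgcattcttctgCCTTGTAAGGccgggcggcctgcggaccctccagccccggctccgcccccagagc

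The comparison of the genotype labels asked whether these genes differ between *Brca1* knockout and wild type luminal cells. The 6 contractile genes were all lower on average in the knockout libraries, and *Oxtr* and *Trp63* were higher, but no difference passed the test. Only *Acta2*, *Tagln* and *Oxtr* averaged 1 FPKM or more and entered the fit of limma on log2(FPKM + 1). That fit called 0 of 11481 genes at an adjusted p under 0.05 (0%), with 372 genes (3.24%) at an unadjusted p under 0.05. The labels do not say that the libraries come from separate mice, so p-values measure the spread between these libraries, which may be technical.

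*Acta2* differed by -0.94 on the log2(FPKM + 1) scale, knockout minus wild type (SE 0.72, 95% interval -2.75 to 0.87, limma adjusted p = 0.92), and the wild type libraries spread more (SD 1.24, n = 3) than the knockout libraries (SD 0.25, n = 2). *Tagln* differed by -0.66 (SE 0.34, interval -1.51 to 0.19, limma adjusted p = 0.92) and *Oxtr* by 1.22 (SE 0.82, interval -0.84 to 3.29, limma adjusted p = 0.92). These intervals include 0 and also changes of more than 1 on the log2 scale. *Myh11*, *Cnn1*, *Actg2*, *Mylk* and *Trp63* differed by -0.61, -0.55, -0.33, -0.20 and 0.10, with p between 0.4 and 0.6 in the exact two-sided permutation test, which cannot go below 0.2 here. In a limma fit that kept low genes, their 95% intervals were -1.62 to 0.40 for *Myh11*, -1.56 to 0.45 for *Cnn1*, -1.36 to 0.71 for *Actg2*, -0.60 to 0.20 for *Mylk* and -0.07 to 0.27 for *Trp63*. The median difference was -0.44 over the 8 genes and -0.58 over the 6 contractile genes, beside 0.11 over all genes tested.

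The size of these differences moved with single libraries. Without Lum3, *Acta2* differed by -1.63 (limma unadjusted p = 0.00295, adjusted p = 0.68), *Tagln* by -0.93 (adjusted p = 0.70), *Myh11* by -0.95, *Cnn1* by -0.89 and *Actg2* by -0.64, while *Oxtr* differed by 0.42 (adjusted p = 0.75). Without Lum2, *Acta2* differed by -0.44, *Mylk* by -0.10, *Actg2* by -0.012 and *Oxtr* by 1.60. *Trp63* ranged from 0.026 without Lum4 to 0.17 without Lum5. No member changed direction when a library was left out, and the limma adjusted p over all alternatives lay between 0.68 and 1.00 for *Acta2*, 0.64 and 1.00 for *Tagln* and 0.62 and 1.00 for *Oxtr*.

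**Figure D4:**
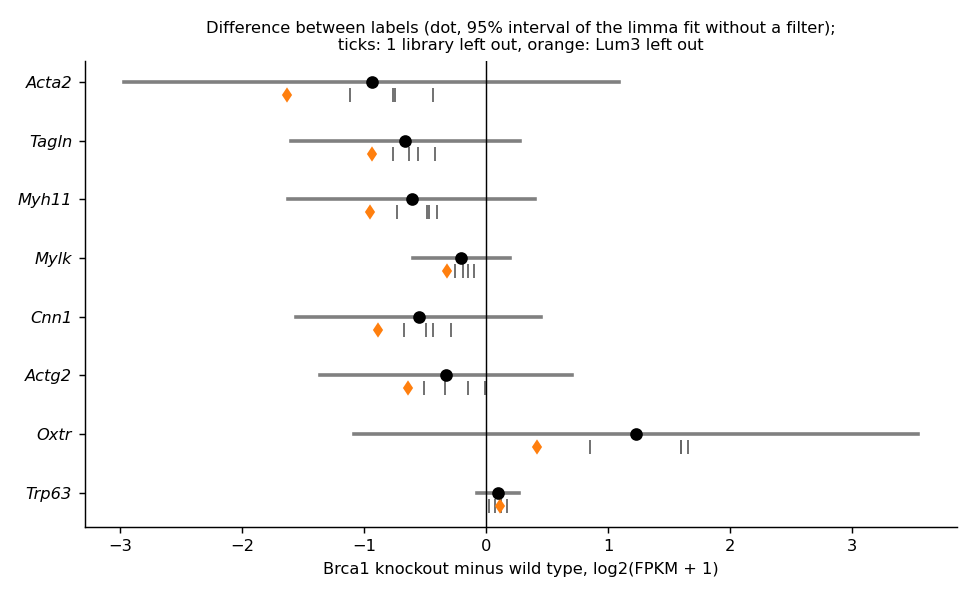
Difference of each gene between labels, *Brca1* knockout minus wild type, in log2(FPKM + 1) (dots), with 95% intervals of a limma fit that kept low genes (bars), and the same difference with 1 library left out (ticks, with an orange diamond for Lum3). Every interval crosses 0. The 6 contractile genes lie below 0, and *Oxtr* and *Trp63* lie above it.

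Of 20 further genes of the smooth muscle contractile apparatus, 13 were tested, none passed, and 2 had Lum2 highest and Lum1 second. These were *Myl9*, the regulatory light chain of smooth muscle myosin, at 2.54, 4.50, 0.656, 0.506 and 0.593 FPKM in Lum1 to Lum5, and *Tpm2*, a tropomyosin of muscle, at 1.89, 2.09, 0.729, 0.338 and 0.380 FPKM. That order was held by 4.48% of all genes that averaged 0.1 FPKM or more. It was not particular to contractile genes. Of 16 luminal genes, 2 held it, the milk protein genes *Csn2* and *Wap*, as did 2 of 15 genes of contraction control, *Rhoa* and *Gna11*. The most abundant of the 20, *Csrp1*, *Tpm1*, *Vcl*, *Flna* and *Actn1*, which many cell types use, ranged from 25.7 to 443 FPKM without that order. In 6 of the 20, every wild type library lay above every knockout library, an order held by 7.13% of all genes that averaged 0.1 FPKM or more. These 6 were *Myl9*, *Tpm2*, *Cald1*, *Cav1*, *Pdlim7* and *Ppp1r14a*, which differed by -1.04, -0.87, -1.10, -1.88, -0.81 and -0.79 on the log2(FPKM + 1) scale, knockout minus wild type. In 2 others, *Tpm1* and *Ppp1r12b*, every knockout library lay above every wild type library. The share of all genes with that reverse order was not computed. Other lists also held genes with every wild type library above every knockout library. They were 5 of 18 nonmuscle and striated paralogs, 5 of 25 basal genes, 3 of 10 pericyte markers and 3 of 7 endothelial markers. Contraction control had 1 of 15 and the luminal list 2 of 16. *Kcnmb1*, *Des* and *Mylk3*, also among the 20, averaged under 0.1 FPKM. *Cav1* (caveolin) and *Pdlim7* were highest in Lum3, where *Acta2* was lowest. The 13 tested genes had a median difference between labels of 0.00.

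Of the 15 genes of signalling to contraction downstream of the receptor, such as *Gnaq*, the calmodulin genes and *Rhoa*, 15 were tested, 0 passed, and their median difference was -0.01. For the serum response factor program, 7 of 9 listed names were found, 6 were tested and 0 passed. The names not found, *Mrtfa* and *Mrtfb*, are newer names of *Mkl1* and *Mkl2*, which were found. *Srf* stood at 30.5, 23.7 and 49.2 FPKM in Lum1, Lum2 and Lum3 and at 32.0 and 43.4 FPKM in Lum4 and Lum5, so it was lowest in Lum2, where the contractile genes were highest. *Mkl1*, a coactivator of serum response factor, was at 7.14, 8.83 and 8.73 FPKM in the wild type libraries and at 5.12 and 6.36 FPKM in the knockout libraries, a difference of -0.46. *Tead1*, a TEAD factor, was highest in Lum2, at 9.72 FPKM. *Myocd*, the smooth muscle coactivator of serum response factor, was at or below 0.0151 FPKM. Of 18 nonmuscle and striated paralogs, 13 were tested and 0 passed, and their median difference was -0.34. *Acta2* shared no stretch of 100 bases with any of the other actin genes, 7 of its 2146 stretches of 50 bases with *Actg1*, and *Myh11* shared 26 of 7644 with *Myh9*, so reads that fit both genes are possible in these places.

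Among 25 further genes of basal identity, 16 were tested and 0 passed, with a median difference of -0.10. *Krt14*, *Krt5* and *Col17a1*, 3 of the 25, had Lum2 highest and Lum1 second, as the contractile genes did. Of all genes that averaged 0.1 FPKM or more, 4.48% held that order. *Krt5*, the basal keratin partner of *Krt14*, was at 1.53, 2.34 and 0.795 FPKM in the wild type and 0.423 and 0.232 FPKM in the knockout libraries. *Krt14* was 28.4 times as high in Lum2 as in Lum3. *Itgb1*, *Itga6*, *Lamb3* and *Itgb4*, surface and basement membrane genes of basal cells that luminal cells also transcribe, ranged from 16.8 to 85.9 FPKM without that order.

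Markers of other cell types moved between the same libraries. The 10 fibroblast markers summed to 5.89, 125 and 94.4 FPKM in Lum1, Lum2 and Lum3 and to 9.56 and 14.5 FPKM in Lum4 and Lum5. The 8 leukocyte markers summed to 7.97, 285 and 63.2 FPKM and to 5.36 and 10.1 FPKM, and the 7 endothelial markers to 1.12, 9.46 and 11.4 FPKM and to 0.611 and 1.20 FPKM. These sums were high in Lum2 and Lum3, whereas the contractile genes were high in Lum2 and Lum1 and low in Lum3. The 10 markers of pericytes and vascular smooth muscle, cells that use the same contractile genes, summed to 16.7, 15.1 and 25.0 FPKM and to 20.9 and 19.5 FPKM, mostly through *Notch3*. Their defining markers *Rgs5*, *Pdgfrb* and *Cspg4* were at or below 1.07 FPKM, and each was highest in Lum2 (1.07, 0.541 and 0.0923 FPKM). *Ndufa4l2* and *Higd1b* were above 0 only in Lum2, at 0.185 and 0.131 FPKM. The others of the 10 peaked elsewhere: *Notch3*, *Mcam* and *Abcc9* in Lum3, *Kcnj8* in Lum1 and *Rgs4* in Lum4. The part of such cells in the levels of the contractile genes was not tested.

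**Figure D5:**
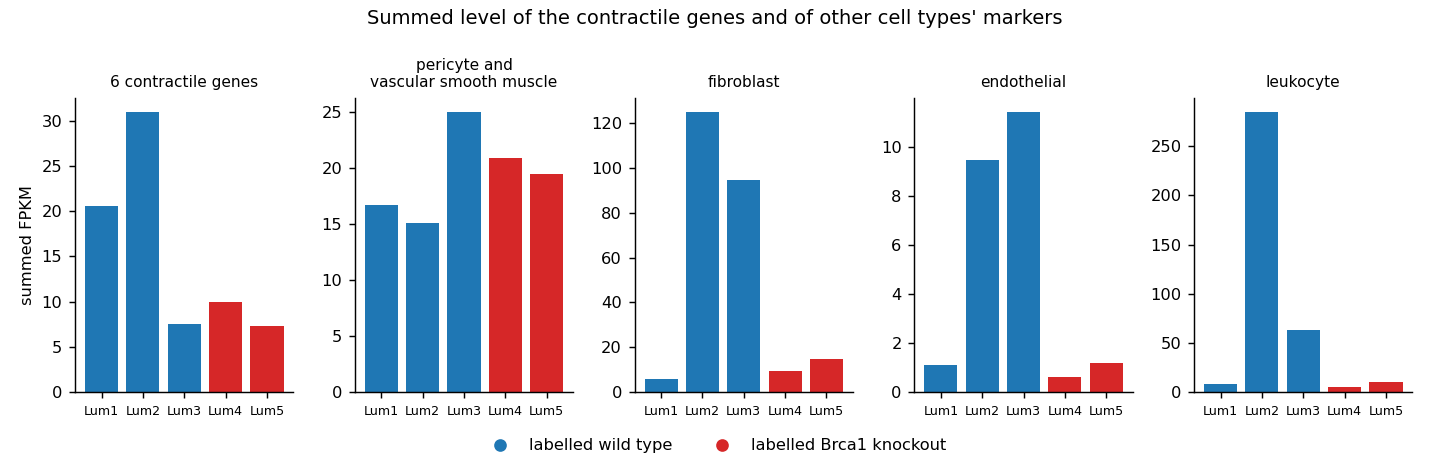
Summed FPKM (bars from 0, with a separate linear axis in each panel) of the 6 contractile genes and of 4 marker lists of other cell types in the 5 libraries, coloured by genotype label. The fibroblast, leukocyte and endothelial sums are high in Lum2 and Lum3, and the contractile sum is high in Lum2 and Lum1.

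Genes with a profile like a member were sought among all genes that averaged 1 FPKM or more, by the root mean square difference of centred log2(FPKM + 1) over the 5 libraries. For *Acta2* they were *Igfbp2* (0.214), *Myl9* (0.284), *Npl* (0.328), *Ripk3* (0.338) and *Grrp1* (0.340). For *Oxtr* they were *Hephl1* (0.0662), *Cyp1b1* (0.128), *Mcm5* (0.173), *Kif22* (0.196) and *Uhrf1* (0.197). *Hephl1*, the nearest, was at 7.23, 6.36 and 0.353 FPKM in Lum1, Lum2 and Lum3 and at 6.46 FPKM in Lum4, and was highest in Lum5, as *Oxtr* was. *Mcm5*, a subunit of the replicative helicase, was at 12.4, 12.2 and 1.90 FPKM and at 16.1 and 19.6 FPKM, so it was low in Lum3 as *Oxtr* was. *Trp63* is nearly flat on this scale because 1 is added to values at or below 0.311 FPKM. In FPKM its highest library was 2.70 times its lowest. Its nearest genes, *Tdg*, *Senp6*, *Epb4.1*, *Map3k12* and *Pan3*, are therefore those that hardly vary, and the likeness carries no more than that.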

How the data were processed

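Per the labels, reads were trimmed with Trimmomatic 0.35, aligned to mm10 with TopHat2 2.0.13 and quantified with Cufflinks 2.2.1. The study's methods name another TopHat version. The authors deposited FPKM for 24346 gene names in 5 libraries, with no counts and no read totals. The annotation is not given in the sources used here. From these, 27 names that had become dates were removed. Values were analysed as log2(FPKM + 1), where a difference understates the change of low genes. Labels were compared in R 4.3.3 by limma 3.58.1, with moderated variances that follow a trend on level, for the 11481 genes averaging 1 FPKM or more, with Benjamini-Hochberg adjustment and a threshold of 0.05. Single values under that mean were compared by exact permutation, and the intervals drawn for them came from a fit with no filter, which was added after the data had been seen.

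Depth was estimated, also after seeing the data, from the spacing of low FPKM values times transcript length. Only 53.1% to 58.9% of the 125 to 191 values used per library lay near a whole multiple, against 30% by chance for a spacing fixed beforehand. The spacing was chosen from many candidates to bring values near whole multiples, and chance after that choice was not computed. Fragments are therefore approximate, were not turned into counts, and cover counting error only. Both procedures were tested on simulated data. Coordinates, exons and transcript lengths come from GENCODE M21 (mm10), and promoters from RefSeq.

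The genes named are the 8 members, *Brca1*, up to 5 genes of each of 11 lists by mean FPKM, and the 5 nearest profiles of *Acta2*, *Oxtr* and *Trp63*. *Tpm2*, *Krt5*, *Col17a1*, *Myocd*, *Pcsk7*, *Pgr*, *Prlr*, *Foxa1*, *Cald1*, *Cav1*, *Pdlim7*, *Ppp1r14a*, *Pdgfrb*, *Cspg4* and other genes outside that rule were named after their values were seen or as defining markers. Members and lists were chosen with earlier results of these data known. Alternatives were a pseudocount of 0.1, other filters, median-of-ratios and quantile scaling, no trend, the mean over members and each library left out. Python 3.11.15, numpy 2.4.6, pandas 2.3.3, scipy 1.17.1 and matplotlib 3.10.9 were used.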

Additional observations from a re-analysis of the deposited data

Results flagged for a closer look

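*Oxtr* in the wild type library Lum3, at 0.56 on the log2(FPKM + 1) scale, lay apart from the other four libraries, the next of which was at 2.92. The gap was 0.734 of the range over all 5 libraries, past the limit for 5 samples in Dixon's test. The 5 libraries were taken as one group here, as the study did. Of 11 outcomes examined in this way, 1 stood apart, and chance alone gives about 0.55. About 68.2 fragments lie behind the value in Lum3. *Brca1* and *Csn2* were also lowest in Lum3, while *Pgr*, *Prlr* and *Foxa1* were highest there.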

How the results depend on the processing

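No paired analysis was possible because the labels give the wild type and knockout libraries no shared replicate number. The differences of the 8 genes kept their direction under every alternative run, and none passed the threshold where a test could be made. When a library was left out, *Mylk*, *Cnn1*, *Actg2* and *Trp63* were given as values with no test, as was *Myh11* without Lum1 and without Lum2. Sizes still moved with single libraries, as given above, and with the pseudocount. With a pseudocount of 0.1, *Myh11* differed by -1.16, *Cnn1* by -1.17, *Actg2* by -0.62, *Mylk* by -0.54 and *Trp63* by 0.39. The count of genes called between labels was 0 under every alternative with all 5 libraries and ranged from 0 to 14 when a library was left out (2 without Lum1, 14 without Lum4 and 4 without Lum5). No member was among them, and where 1 knockout library was left it was assumed to vary as the others do. With a pseudocount of 0.1 the median level was -0.39 for the 8 genes and for the 6 contractile genes, and the gap to the luminal keratins was 11.22. With the mean over members in place of the median, the level of the 8 genes was 1.36. The median difference of all genes tested, 0.11, became 0.01 under median-of-ratios scaling and 0.04 under quantile normalization, and the contractile genes stayed below 0 and *Oxtr* and *Trp63* above it. Genes at an unadjusted p under 0.05 numbered 100 to 887 over the alternatives. With 3 libraries against 2, and with few fragments behind *Actg2*, *Trp63* and *Cnn1*, small differences were not detectable.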
